A study of Mus musculus with 6 samples.

Results

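The 42 genes described here encode the transport machinery of the cilium and the gate at its base. They were chosen by name, and all 42 had a row among the 27179 Entrez genes of the deposited count table. A cilium is built by intraflagellar transport (IFT), in which protein trains carry cargo along the microtubules of the axoneme: the IFT-B complex and kinesin-II serve the way out to the tip, and the IFT-A complex and dynein-2 the way back. The BBSome is a coat complex, named for Bardet-Biedl syndrome, that rides on the trains and moves membrane proteins. The transition zone is the barrier between cilium and cytoplasm. Primary cilia, which sense Hedgehog and other signals, and the motile cilia of airway ciliated cells share these parts, whereas the dynein arms and radial spokes belong to motile cilia.

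Messenger RNA was sequenced from EpCAM-positive lung cells, taken by flow sorting at E16.5 in mouse gestation. Grhl2_cKO samples were Shh-Cre;Grhl2f/- (1 floxed and 1 null allele of Grhl2; n = 3, replicates 1, 5 and 10), and Control samples were Shh-Cre;Grhl2f/+ (1 floxed and 1 intact allele; n = 3, replicates 1, 3 and 7). Grhl2 encodes the epithelial transcription factor grainyhead-like 2. Shh-Cre was present in both genotypes and places the recombinase under control of Sonic hedgehog, a gene of the lung epithelium. Where it acted, a Control cell still has its intact allele, and sorted cells outside the Shh lineage still have the floxed one. Males (2) outnumbered females (1) in both genotypes. Whether a sample is 1 embryo or a pool is not stated, and the p-values therefore reflect sample-to-sample spread, which may be partly technical.

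Total counts were 15440843 to 17228762 in Grhl2_cKO libraries and 13472216 to 16386541 in Control libraries. Grhl2 stood at 105.3, 109.1 and 115.2 CPM in Grhl2_cKO replicates 1, 5 and 10, against 149.0, 147.8 and 145.9 CPM in Control replicates 1, 3 and 7 (CPM, counts scaled to TMM-adjusted library totals). It fell to 74.4% of Control (edgeR adjusted p = 0.00204), and the labels do not name the deleted exons. The epithelial genes Nkx2-1 and Sftpc were present in each library, at 597.5 CPM or more and 12583.6 CPM or more. They stood at 103% and 106% of Control. Of 8 epithelial markers, 5 had a log2 fold change below 0 and 3 above, with a median of 89.4% of Control. Krt8, Krt18 and Cdh1 stood at 71.8%, 77.3% and 83.0% of Control (edgeR adjusted p = 0.0843, 0.317 and 0.239). Of the 8, only Epcam passed (below). Over 6 heart muscle markers, Grhl2_cKO replicate 1 stood apart with a sum of 208.3 CPM; the other Grhl2_cKO libraries had 17.75 and 25.73 CPM and Control libraries 19.95 to 38.97 CPM. The 8 mesenchymal markers summed to 836.2 to 1704 CPM in Grhl2_cKO and 863.6 to 1384 CPM in Control libraries, and the 6 immune markers to 7.10 to 10.99 CPM in Grhl2_cKO and 6.96 to 9.86 CPM in Control. For 6 neuron markers the sums were 11.53, 5.65 and 4.73 CPM in Grhl2_cKO replicates 1, 5 and 10 and 2.71 to 5.38 CPM in Control. Of these, Tubb3, which encodes a neuronal tubulin, rose. It had 3.66, 1.54 and 0.89 CPM in Grhl2_cKO, against 0.37, 0.30 and 0.19 CPM in Control (edgeR adjusted p = 0.0337). The edgeR adjusted p was 0.056 and 0.0625 without Grhl2_cKO replicates 1 and 5. It was 0.124 and 0.107 without Control replicates 3 and 7. With limma-voom the adjusted p was 0.0663, and a filter of 1 CPM in 3 libraries removed Tubb3. For 4 mesothelial markers the sums were 60.68, 20.85 and 19.52 CPM in Grhl2_cKO and 78.47, 39.66 and 45.84 CPM in Control, with replicate 1 highest in both genotypes. None of the 4 passed, and Msln, which encodes mesothelin, stood at 33.7% of Control (edgeR adjusted p = 0.0788). The part of these markers in the results below was not tested.

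All 42 genes were expressed in both genotypes. The smallest count of any of them in a library was 68, so none was near the detection limit, and all 42 passed the filter on low counts. Levels of different genes are compared as RPKM (CPM per kilobase of the summed exon length in the deposited table). The median gene had 10.0 RPKM in Grhl2_cKO and 10.9 RPKM in Control. Arl3, which encodes a small GTPase that releases lipid-modified cargo inside the cilium, had the highest level, at 53.7 ± 3.25 RPKM in Grhl2_cKO and 54.9 ± 3.27 RPKM in Control (SD, n = 3 each). Ift20, whose IFT-B protein also resides at the Golgi, followed at 41.7 ± 1.62 RPKM in Grhl2_cKO and 43.6 ± 0.404 RPKM in Control. Ift43, an IFT-A gene, averaged 34.4 RPKM in Grhl2_cKO and 36.9 RPKM in Control, with coefficients of variation of 6.3% and 6.74%, and B9d1, a transition zone gene, had 29.7 ± 1.47 RPKM in Grhl2_cKO and 29.2 ± 2.31 RPKM in Control.

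The lowest level was that of Bbs10, which encodes a chaperonin-like protein that helps the BBSome to assemble, at 2.04 ± 0.575 RPKM in Grhl2_cKO and 1.96 ± 0.0972 RPKM in Control (SD, n = 3 each). Dync2h1, the motor heavy chain of dynein-2, came next from the bottom at a mean of 4.35 RPKM in Grhl2_cKO and 4.55 RPKM in Control (coefficients of variation 2.88% and 7.06%), over an exon length of 13972 bases. Of the 41 neighbouring pairs in this order of levels, 34 overlapped over the 6 libraries. The 7 pairs that did not overlap were Arl3 over Ift20, Ift20 over Ift43, Ift43 over B9d1, B9d1 over Ift52, Kifap3 over Ift74, Ift80 over Ift27, and Dync2h1 over Bbs10. Members of the same complex did not share a level: within IFT-B, in Control, means ran between 8.79 RPKM for Ift57 and 43.6 RPKM for Ift20.

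**Figure D1:**
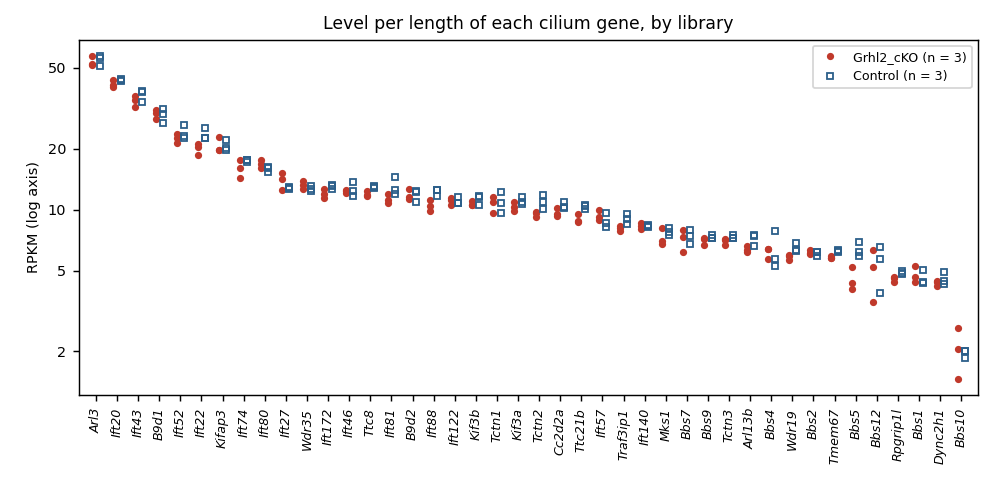
RPKM (log axis) of each of the 42 cilium genes in each library, ordered by the mean over all 6 libraries; filled red points are Grhl2_cKO and open blue squares are Control (n = 3 each). Arl3 stands at the top near 54.3 RPKM, Bbs10 at the bottom near 2.0 RPKM, and the points of the genotypes lie close together for each gene.

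Promoter letters were read because RFX transcription factors are known to drive many cilium genes through the X-box, a motif of paired arms. RefSeq promoter windows (GRCm38.p6, 250 bases before to 50 after the start used in the RefSeq table, which can be that of a shorter transcript) were at hand for 38 of the 42 genes; Ift80, Ift81, Ift122 and Tmem67 had none. A loose X-box spelling, GTNNCC and then GNNAC after 3 bases of any kind, on either strand, occurred for 11 of the 38 genes (28.9%), against 5.26% of all 27025 genes with a window (4.62% of 32851 windows). A stricter spelling, GTTNCC and then GGNAAC after 2 bases of any kind, each match of which is also a loose match, occurred for 3 of 38 (7.89%; Bbs7, Mks1 and Tctn1), against 0.529% of all genes (0.451% of windows). The arm GTTGCC, which can lie within an X-box match, occurred on either strand for 19 of 38 (50%), against 14.1% of all genes (12.5% of windows). A grainyhead spelling, AACCNGTT on either strand, occurred for 2 of 38 (5.26%; Cc2d2a and Ift27), against 2.35% of all genes (2.09% of windows). The spellings were settled with the matches in view, and no test was made of these shares.

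Below are 80 bases from each of the 6 genes whose loose X-box matches lie wholly before that start, on the strand of the gene, with the matches in capitals. Ift22 and Ift57 hold 2 matches each. The annotated Mks1 gene begins at chr11:87853182, so its match lies within the gene, though before the start used.
Bbs7 (chr3:36613464-36613543, minus strand): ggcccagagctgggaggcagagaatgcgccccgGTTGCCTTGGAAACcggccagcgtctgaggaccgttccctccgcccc
Ift22 (chr5:136908069-136908148, plus strand): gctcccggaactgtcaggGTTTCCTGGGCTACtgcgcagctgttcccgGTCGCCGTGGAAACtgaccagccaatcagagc
Ift57 (chr16:49699191-49699270, plus strand): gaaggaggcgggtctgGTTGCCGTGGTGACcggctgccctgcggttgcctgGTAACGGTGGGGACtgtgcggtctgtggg
Mks1 (chr11:87853135-87853214, plus strand): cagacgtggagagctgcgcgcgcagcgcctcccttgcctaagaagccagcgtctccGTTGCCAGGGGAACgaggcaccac
Tctn2 (chr5:124598654-124598733, plus strand): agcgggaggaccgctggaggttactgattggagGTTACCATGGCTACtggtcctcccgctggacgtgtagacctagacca
Wdr19 (chr5:65199616-65199695, plus strand): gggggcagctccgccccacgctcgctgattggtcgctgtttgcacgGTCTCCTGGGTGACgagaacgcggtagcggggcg

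The grainyhead matches are shown because Grhl2 was the deleted factor. The last 80 bases before the start used for Bbs5 are shown because Bbs5 had the largest difference between genotypes of the 42 genes. The Bbs5 window holds neither the loose X-box nor the grainyhead spelling, and the GTTGCC in it begins 43 bases after the start, so the stretch has no capitals. The annotated Bbs5 gene begins at chr2:69646848, so the whole window lies within the gene. Bases upstream of the gene were not read for Bbs5.
Ift27 (chr15:78174153-78174232, minus strand): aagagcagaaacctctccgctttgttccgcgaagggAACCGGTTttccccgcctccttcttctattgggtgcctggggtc
Cc2d2a (chr5:43662299-43662378, plus strand): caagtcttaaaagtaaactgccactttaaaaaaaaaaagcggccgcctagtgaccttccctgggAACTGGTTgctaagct
Bbs5 (chr2:69647091-69647170, plus strand): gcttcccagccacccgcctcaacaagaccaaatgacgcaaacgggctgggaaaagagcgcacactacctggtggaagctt

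The levels of these genes were then compared between the genotypes, Shh-Cre;Grhl2f/- against Shh-Cre;Grhl2f/+. Where the recombinase acted, Control cells had also lost their floxed allele, and the null allele of Grhl2_cKO was not limited to those cells. None of the 42 passed the test in either direction (edgeR quasi-likelihood test on all 14842 genes that passed the filter, Benjamini-Hochberg adjusted p under 0.05), against 3.59% of all genes tested (2.38% lower and 1.21% higher in Grhl2_cKO). The smallest adjusted p among them was 0.123. DESeq2 and limma-voom also called 0 of the 42, against 4.51% and 3.66% of all genes. At an unadjusted p under 0.05, 5 of the 42 were lower in Grhl2_cKO (11.9%, against 7.28% of all genes tested lower and 13.3% in either direction) and 0 were higher (against 5.99%). That count of 5 was 3 with DESeq2, 4 with upper-quartile scaling and 6 with sex as a covariate. It was 2 without Grhl2_cKO replicate 5 or without replicate 10, and 6 without Control replicate 7. It was 3 without Grhl2_cKO replicate 1, Control replicate 1 or Control replicate 3, and 5 in the other settings. The median log2 fold change of the 42 was -0.07, or 95.2% of Control, beside -0.004 over all genes tested. It lay below 0 for 30 of the 42 (71.4%), against 51.5% of all genes tested.

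Most of the 42 genes were measured tightly, which limits the size of a difference in the average over the sorted cells. Each interval holds for its gene alone, and a change within a minority of the cells was not measured. Their median standard error was 0.08 on the log2 scale, and their median coefficient of variation between replicates was 5.15% in Grhl2_cKO and 5.2% in Control. The 95% interval of the fold change lay wholly within 1.5-fold of Control in either direction for 40 of the 42 (95.2%), against 73.8% of all genes tested and 88.9% of the 8281 genes within the same range of mean CPM. The exceptions were Bbs5 and Bbs12.

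**Figure D2:**
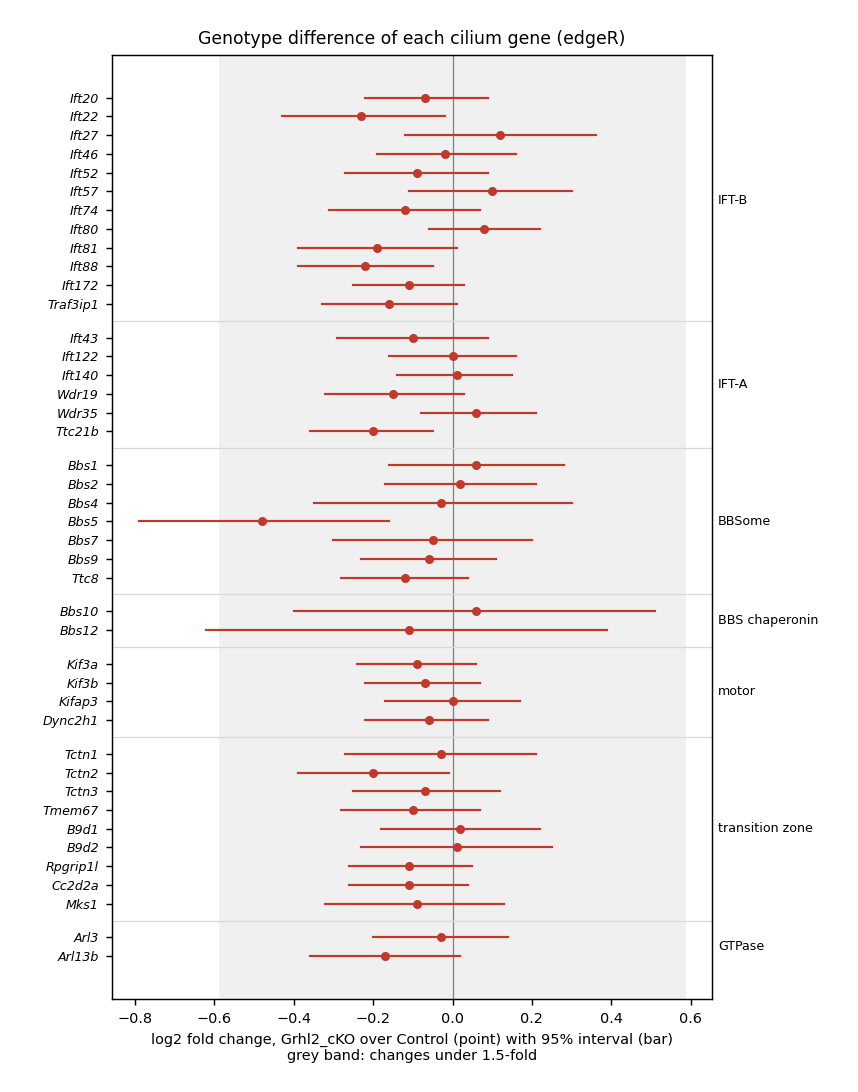
Log2 fold change of Grhl2_cKO over Control for each gene (point) with its 95% interval (bar), grouped by role; the grey band spans changes under 1.5-fold. Bbs5 at -0.48 lies farthest from 0, and 40 of the 42 bars stay within the band.

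Summed over the 42 genes, the level was 1398, 1390 and 1380 CPM in Grhl2_cKO replicates 1, 5 and 10, against 1469, 1468 and 1426 CPM in Control replicates 1, 3 and 7. The sums of the groups did not overlap, and the Grhl2_cKO mean was 95.5% of the Control mean. The highest of the 6 libraries was a Grhl2_cKO library for 10 genes and a Control library for 32. The lowest was a Grhl2_cKO library for 31 genes, 14 of them in replicate 10, and a Control library for 11. For 11 of the 42 genes (26.2%) each Grhl2_cKO library lay below each Control library, against 9.89% of all genes tested, and for 0 genes was the order the opposite, against 8.17% (18.1% of all genes tested in either direction). These 11 were Ift22, Ift88, Traf3ip1, Wdr19, Ttc21b, Bbs5, Ttc8, Tctn2, Tctn3, Tmem67 and Rpgrip1l. No p is given for these counts, since genes of a list are not replicates.

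**Figure D3:**
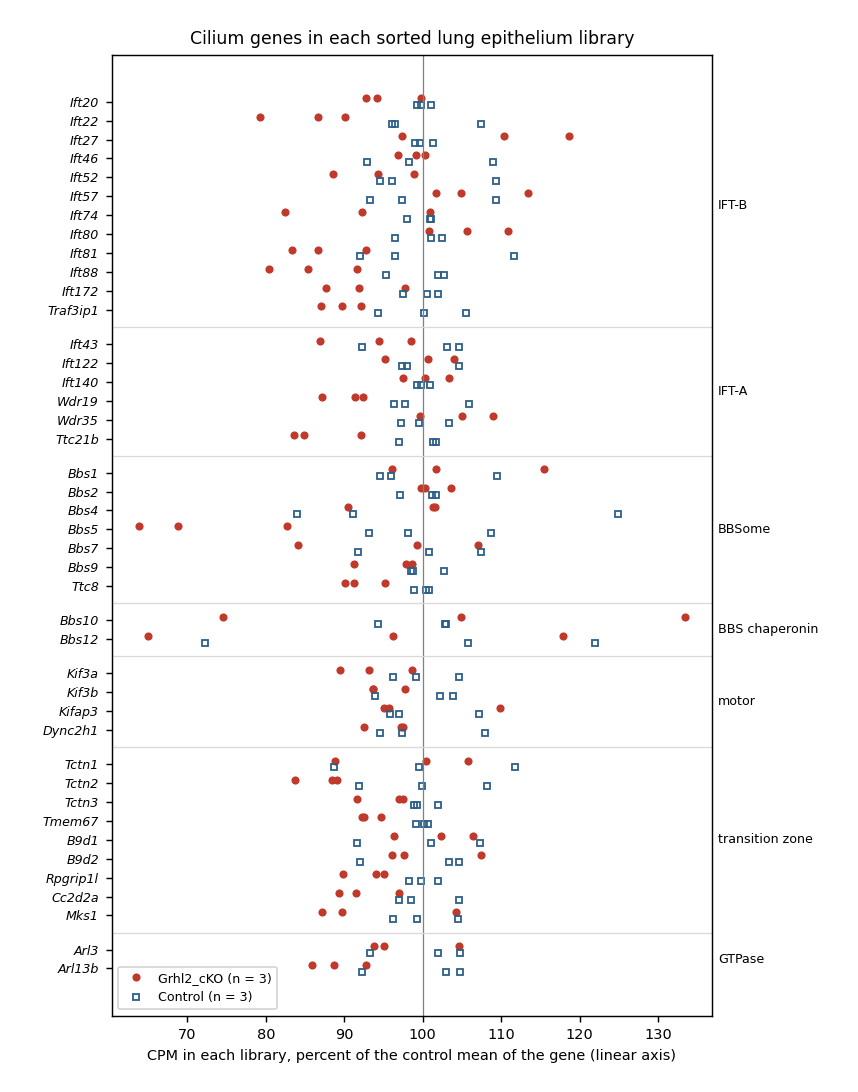
CPM of each cilium gene in each library as a percent of that gene's mean over Control libraries (linear axis); filled red points are Grhl2_cKO and open blue squares are Control (n = 3 each), grouped by role. Bbs10, Bbs12 and Bbs4 spread widely within a genotype, Bbs5 stands apart between genotypes, and the other genes gather around 100 with Grhl2_cKO more often to the left.

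Among the 12 IFT-B genes, 9 had a log2 fold change below 0, the median was -0.10, and none passed the test. Ift88, whose protein is needed for cilium assembly (Entrez 21821, chromosome 14), had 30.22, 34.46 and 32.12 CPM in Grhl2_cKO, against 38.3, 38.63 and 35.85 CPM in Control. The groups did not overlap, and the log2 fold change was -0.22 ± 0.08 (SE; 95% interval -0.39 to -0.05; edgeR adjusted p = 0.21). Ift22, an IFT-B gene that encodes a RAB-like GTPase, had 19.22, 18.48 and 16.92 CPM in Grhl2_cKO, against 22.92, 20.5 and 20.57 CPM in Control, again without overlap. Its log2 fold change was -0.23 ± 0.09 (SE; edgeR adjusted p = 0.31). Traf3ip1, which encodes the microtubule-binding subunit also called IFT54, stood at 89.7% of Control and Ift172, the largest IFT-B protein, at 92.5%, neither past the test.

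Other IFT-B genes leaned the other way or neither way. Ift27, which encodes a small GTPase subunit and carries the grainyhead letters shown above, had 12.62, 14.31 and 15.38 CPM in Grhl2_cKO, against 12.92, 13.14 and 12.83 CPM in Control. Its log2 fold change of 0.12 ± 0.11 was the highest of the 42, and the groups overlapped. Ift27 was also the only one of the 42 on chromosome 15, where Grhl2 lies, 40.8 Mb away from it. Ift46 stood at 98.9% of Control (95% interval on the log2 scale -0.19 to 0.16). Ift80 had 71.97, 68.59 and 65.49 CPM in Grhl2_cKO, against 62.64, 65.64 and 66.54 CPM in Control, with overlap, and a log2 fold change of 0.08 ± 0.06.

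Of the 6 IFT-A genes, 3 lay below 0 and 3 above, with a median of -0.05 and none past the test. Ttc21b, whose protein is the IFT-A subunit IFT139 (Entrez 73668, chromosome 2), had 42.59, 38.63 and 39.22 CPM in Grhl2_cKO, against 44.87, 46.84 and 47.01 CPM in Control. The groups did not overlap, and the log2 fold change was -0.20 ± 0.07 (SE; 95% interval -0.36 to -0.05; edgeR adjusted p = 0.199). Wdr19 (IFT144) had 26.25, 25.99 and 24.79 CPM in Grhl2_cKO, against 30.09, 27.8 and 27.4 CPM in Control, without overlap, at 90.4% of Control (edgeR adjusted p = 0.511). Ift122 and Ift140, both core IFT-A genes, overlapped between genotypes, with log2 fold changes of 0.00 ± 0.07 and 0.01 ± 0.06. Ift122 averaged 44.86 ± 1.99 CPM in Grhl2_cKO and 44.87 CPM in Control. Its 95% interval ran between -0.16 and 0.16 on the log2 scale.

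The BBSome group held the largest difference. Bbs5, a membrane-binding BBSome subunit gene (Entrez 72569, chromosome 2), had 6.19, 7.44 and 5.74 CPM in Grhl2_cKO, against 9.78, 8.82 and 8.38 CPM in Control. The groups did not overlap, and Bbs5 stood at 71.8% of Control. The log2 fold change was -0.48 ± 0.14 (SE; 95% interval -0.79 to -0.16), which did not pass after adjustment (edgeR adjusted p = 0.123; 0.107 to 0.336 over 15 alternative settings). The other 6 BBSome genes lay between 92.2% of Control for Ttc8, which encodes the subunit BBS8, and 104% for Bbs1. Ttc8 had 28.42, 27.27 and 26.92 CPM in Grhl2_cKO, against 30.09, 29.99 and 29.53 CPM in Control, without overlap (edgeR adjusted p = 0.607). Bbs2 had 18.56, 17.97 and 17.87 CPM in Grhl2_cKO, against 18.22, 17.4 and 18.12 CPM in Control, and stood at 101% of Control with overlap.

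The chaperonin-like genes Bbs10 and Bbs12 had the highest coefficients of variation of the 42 genes among Grhl2_cKO replicates, at 28.2% and 28.6%. Bbs12 had 12.62, 15.46 and 8.52 CPM in Grhl2_cKO replicates 1, 5 and 10, against 9.48, 13.87 and 15.99 CPM in Control replicates 1, 3 and 7. Bbs10 had 5.65, 7.19 and 4.02 CPM in the same Grhl2_cKO libraries, against 5.08, 5.54 and 5.55 CPM in the Control libraries. For both genes Grhl2_cKO replicate 5 was the highest and replicate 10 the lowest of its group, and Control replicate 1 the lowest of its group. The genotypes overlapped, and the 95% intervals were wide, at -0.40 to 0.51 for Bbs10 and -0.62 to 0.39 for Bbs12. Over 8 cell cycle genes the summed level had these extremes too, at 2795, 3020 and 2680 CPM in Grhl2_cKO replicates 1, 5 and 10, against 2436, 2944 and 2893 CPM in Control replicates 1, 3 and 7. Its highest Control library was replicate 3, whereas that of Bbs12 was replicate 7. The sums over 6 RFX factor genes shared the extremes as well, at 281.6, 303.3 and 277.8 CPM in Grhl2_cKO, against 268.8, 280.0 and 307.3 CPM in Control. The part of either list in the spread of Bbs10 and Bbs12 was not tested.

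None of the 4 motor genes passed the test. Kif3a and Kif3b, the motor subunits of kinesin-II, stood at 93.8% and 95.1% of Control, and Kifap3, its cargo adaptor, at 100%. Kifap3 had 77.26, 88.74 and 76.73 CPM in Grhl2_cKO, against 77.35, 86.57 and 78.34 CPM in Control. Dync2h1 had 58.81, 61.92 and 61.76 CPM in Grhl2_cKO, against 60.11, 68.62 and 61.9 CPM in Control. All 4 motor genes overlapped between genotypes, and their 95% intervals lay between 84.6% of Control (Kif3a) and 112% (Kifap3).

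Of the 9 transition zone genes, 7 lay below 0, the median was -0.09 and none passed. Tctn2, a tectonic gene (Entrez 67978, chromosome 5), had 26.61, 25.02 and 26.44 CPM in Grhl2_cKO, against 32.33, 29.87 and 27.47 CPM in Control, without overlap (log2 fold change -0.20 ± 0.08 SE; edgeR adjusted p = 0.341). Tmem67, which encodes the membrane protein meckelin, lay between 19.95 and 20.47 CPM in Grhl2_cKO, against 21.43 to 21.78 CPM in Control. Its groups did not overlap either, though the difference was small, at 93.1% of Control. Rpgrip1l and Cc2d2a, scaffold genes of the zone, stood at 92.9% and 92.6% of Control. B9d1 and B9d2, whose B9-domain proteins bind Mks1, stood at 102% and 100%, and Mks1 at 93.6%, each with overlap.

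Both small GTPase genes overlapped between genotypes. Arl13b, whose protein marks the ciliary membrane, had 21.69, 22.39 and 23.43 CPM in Grhl2_cKO, against 23.3, 25.98 and 26.44 CPM in Control, and its log2 fold change was -0.17 ± 0.08 (SE; edgeR adjusted p = 0.478). Arl3 had 42.29, 42.92 and 47.21 CPM in Grhl2_cKO, against 47.26, 45.99 and 42.11 CPM in Control.

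Reads cannot always be assigned to these genes alone. In the GENCODE M21 annotation of GRCm38, 27.5% of the exon bases of Tctn1 lie antisense to exons of Hvcn1, 9.92% of those of Tmem67 and 8.45% of those of Ift57 lie antisense to other genes. Whether the counting used strand was not found in the labels. No other gene of the 42 shared over 5% of its exon bases.

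Many genes of motile cilia fell. Of 25 axoneme genes listed beside the 42, 24 passed the filter, and 12 of the 24 fell in Grhl2_cKO (50%, against 2.38% of all genes tested lower) and none rose. Their median was 41.4% of Control. Foxj1, which encodes the master transcription factor of motile cilia (Entrez 15223, chromosome 11), had 34.66, 22.01 and 20.29 CPM in Grhl2_cKO, against 67.65, 56.45 and 52.1 CPM in Control. It fell to 43.8% of Control (edgeR adjusted p = 0.00575). Dnah11, an outer arm dynein gene, fell to 51.0% and Spag17, a central apparatus gene, to 30.9% of Control (edgeR adjusted p = 0.00478 and 0.0107). In sorted bulk cells, fewer ciliated cells and less of these RNAs per ciliated cell cannot be told apart. Airway secretory cell markers were lower in the same libraries, with sums over 6 genes of 199.7, 100.5 and 103.9 CPM in Grhl2_cKO, against 330.8, 282.1 and 241.3 CPM in Control. Of the 6, 3 fell (against 2.38% of all genes tested lower), none rose, and the median was 49.7% of Control. Aldh1a1, Lypd2 and Cbr2 fell, to 52.8%, 29.1% and 33.7% of Control (edgeR adjusted p = 0.00124, 0.00377 and 0.0141). Scgb3a2, Cyp2f2 and Scgb1a1 stood at 50.7%, 48.7% and 77.5% of Control and did not pass (edgeR adjusted p = 0.0828, 0.105 and 0.896). Cbr2 did not pass with robust edgeR (adjusted p = 0.168) or without Grhl2_cKO replicate 10 (edgeR adjusted p = 0.0713). The part of the secretory cells in these values was not tested. The axoneme count of 12 was 4 without Grhl2_cKO replicate 5, 3 without Grhl2_cKO replicate 10 and 7 without Control replicate 3, while Foxj1, Dnah11 and Spag17 passed under all 15 alternatives.

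The 42 cilium genes and the axoneme genes are set side by side here, since they share the same samples. Library by library, the median axoneme gene stood at 56.0%, 35.2% and 36.8% of its Control mean in Grhl2_cKO replicates 1, 5 and 10, against 127%, 86.3% and 84.8% in Control replicates 1, 3 and 7. The median of the 42 genes stood at 96.5%, 93.9% and 94.3% in the same Grhl2_cKO libraries, against 101%, 101% and 98.4% in the same Control libraries. Grhl2_cKO replicate 1 was the nearest of its group to Control in both lists. That library also had the high heart muscle sum and was the female sample of its group. The Control libraries showed no such parallel, since replicates 1 and 3 differed for the axoneme genes (127% and 86.3%) but not for the 42 (both 101%). The 95% intervals were 33.1% to 57.9% of Control for Foxj1, 41.0% to 63.5% for Dnah11 and 19.8% to 48.0% for Spag17, while the lowest bound among the 42 genes was 57.6% (Bbs5) and the highest 143% (Bbs10). The part of the ciliated cells in the values of the 42 genes was not tested.

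**Figure D4:**
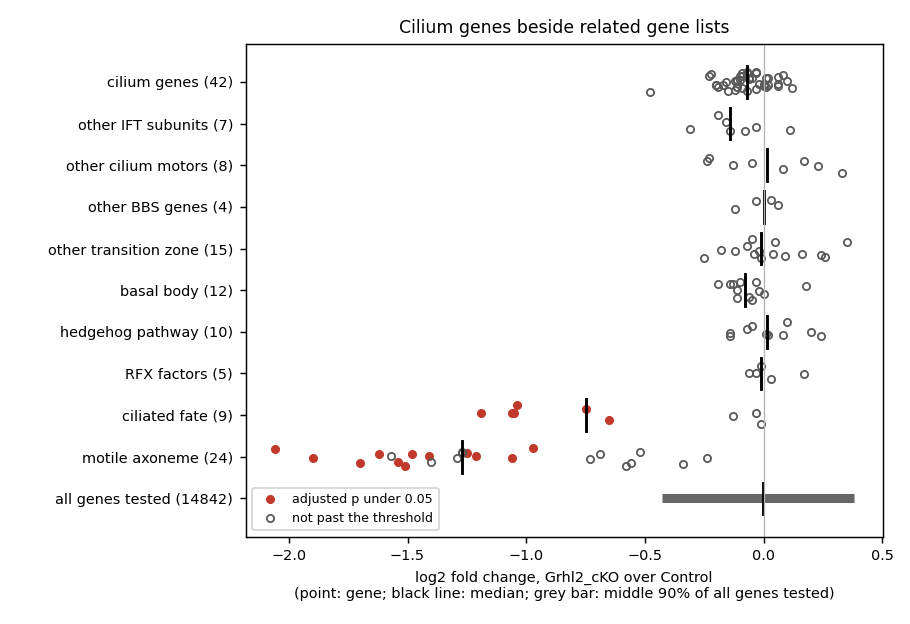
Log2 fold change of Grhl2_cKO over Control for each tested gene of the 42 cilium genes and of 9 related lists (number tested in brackets); filled red points passed the test, open points did not, black lines are medians and the grey bar spans the middle 90% of all genes tested. The 42 genes center on -0.07, the axoneme genes on -1.27 and the ciliated fate genes on -0.75.

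Further genes of the same machinery lay on both sides of Control. Over 35 further genes of the IFT, motor, BBS and transition zone groups, 34 passed the filter, none passed the test in either direction, and the median was 97.9% of Control. Of the 34, 20 lay below 0, against 51.5% of all genes tested. Without overlap, 7 were lower in Grhl2_cKO (against 9.89% of all genes tested) and 4 higher (against 8.17%). The difference of these counts from those of the 42 genes was not tested. At an unadjusted p under 0.05, 2 were lower (Wdr34 and Cep290) and 4 higher (Kif3c, Kif7, Ahi1 and Invs), against 7.28% and 5.99% of all genes tested. Ahi1, a transition zone gene linked to Joubert syndrome, had 11.29, 13.99 and 14.08 CPM in Grhl2_cKO, against 10.45, 10.59 and 9.74 CPM in Control, without overlap (log2 fold change 0.35 ± 0.12 SE; edgeR adjusted p = 0.186). Kif7, a kinesin gene of Hedgehog signalling at the cilium tip, had 23.85, 26.31 and 22.6 CPM in Grhl2_cKO, against 20.61, 20.44 and 20.83 CPM in Control, without overlap (edgeR adjusted p = 0.242). Wdr34, which encodes a dynein-2 intermediate chain, stood at 85.3% of Control without overlap (edgeR adjusted p = 0.242). Ttc30a1, Ttc30a2 and Ttc30b are near-identical paralogs, so their counts are uncertain.

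None of 12 basal body genes passed, 10 had a value below 0, and their median was 94.5% of Control. Cep83, a distal appendage gene, had 41.33, 42.8 and 40.58 CPM in Grhl2_cKO, against 48.68, 46.05 and 47.46 CPM in Control, without overlap (log2 fold change -0.19 ± 0.07 SE; edgeR adjusted p = 0.208). Of the RFX factor genes, 5 of 6 passed the filter and none the test. Rfx3, an RFX factor of ciliated cells, had 79.18, 91.5 and 75.13 CPM in Grhl2_cKO, against 75.64, 86.87 and 88.79 CPM in Control (97.7% of Control; 95% interval 85.4% to 112%). Rfx2, likewise, stood at 99.3% of Control with overlap. The 11 of the 42 genes with the loose X-box spelling had a median log2 fold change of -0.05, and the 27 with a window but no match -0.09. The 2 genes with the grainyhead spelling had a median of 0.01, and the 36 without it -0.07. Of the axoneme genes, 20 had a window. Among these 20, 7 held the loose X-box spelling, 0 the stricter one, 9 the arm GTTGCC and 1 the grainyhead spelling. The part of these letters in the differences was not tested.

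Of 9 ciliated fate genes, 6 fell and none rose (median 59.5% of Control), against 2.38% of all genes tested lower and 1.21% higher. Besides Foxj1, Myb, which acts early in these cells, fell to 63.8% and Foxn4 to 48.4% of Control (edgeR adjusted p = 0.00593 and 0.0076), while the 3 that did not pass were Gmnc, Rfx2 and Rfx3. Hedgehog signalling depends on the primary cilium, and none of 10 Hedgehog pathway genes passed (median 101% of Control). Mesenchymal markers were also present in these libraries, and which cells gave the Hedgehog pathway RNA was not tested. The target gene Gli1 averaged 11.93 ± 0.898 CPM in Grhl2_cKO and 12.49 ± 1.61 CPM in Control (SD, n = 3 each) with overlap. The ligand gene Shh had 100.1, 110.6 and 105.8 CPM in Grhl2_cKO, against 89.82, 80.67 and 96.91 CPM in Control, without overlap (edgeR adjusted p = 0.132).

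Epcam, the gene of the sorted protein, fell to 67.6% of Control (edgeR adjusted p = 0.00527), and the part of the sort in these results was not tested. Without Grhl2_cKO replicate 1, the library with the high heart muscle sum, 0 of the 42 cilium genes passed, the smallest adjusted p was 0.165 and their median log2 fold change was -0.08.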

How the data were processed

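Poly(A) RNA from EpCAM-sorted embryonic lung cells was sequenced in 6 stranded libraries, per the labels' protocols. The deposited file holds the authors' raw read counts for each Entrez gene and a gene length column. Per the submitters' processing notes, the tools were bcl2fastq 2.17.1.14, featureCounts, edgeR 3.16.5 and limma 3.30.12, on mm10; neither an aligner nor a rule for multi-mapping reads is named there. Symbols and positions came from RefSeq genes of GRCm38.p6, which named 25275 of 27179 rows.

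Groups were taken from the sample descriptions. The test was edgeR 4.0.16 in R 4.3.3 (TMM factors 0.981 to 1.009, filterByExpr with minimum count 10 and total 15, glmQLFit, glmQLFTest, no covariate), with Benjamini-Hochberg adjustment over 14842 genes and a threshold of 0.05. Standard errors were derived from the F statistic and the log2 fold change, and 95% intervals use the quasi-likelihood degrees of freedom. CPM uses TMM-scaled totals; a count of 3 is 0.177 to 0.224 CPM. Intervals cover the spread between these samples. The settings varied were the scaling (RLE, upper quartile, library total), the filter (none, or 1 CPM in 3 libraries), the tool (DESeq2 1.42.0, limma-voom with limma 3.58.1, robust edgeR), a sex term, and each library omitted in turn.

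The genes and lists were chosen with earlier results of these data known. Named genes were the 2 with the smallest p in each role group, those of highest and lowest RPKM, Grhl2, Epcam, Foxj1 and up to 3 of each other list. Values of further cilium genes are given where their group is described. Gli1, Rfx2, Rfx3, Nkx2-1, Sftpc, Cdh1, Krt8, Krt18, Tubb3, Msln and the secretory markers were added after their values were seen. The test was checked on simulated counts for Grhl2_cKO against Control over 14820 genes. It recovered 73.8% of genes changed 1.5-fold, 93.8% at 2-fold and 100% at 4-fold, with 9 false calls among 184. The changed genes were picked at random, and each simulated gene had the spread typical of its level, not its own. Recovery for the real genes may therefore differ. Changes under 1.5-fold were not simulated.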

Additional observations from a re-analysis of the deposited data

How the results depend on the processing

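None of the 42 cilium genes passed under any of the 15 alternatives. Leaving out 1 library at a time gave 246 to 501 genes called over the whole table in place of 533 (249 and 246 without Grhl2_cKO replicates 5 and 10, 293 and 325 without Control replicates 3 and 7), 165 to 336 lower genes in place of 353, 7 to 19 called genes over the other cilium-related lists and 3 to 13 called axoneme genes. The median log2 fold change of the 42 genes was -0.09 to -0.06 in these fits and -0.07 to -0.06 in the other alternatives. Among the genes followed separately (43 genes, 14 of them among the 42), with 1 library left out, the log2 fold change crossed 0, with no call, for Bbs10 (-0.16 to 0.25; below 0 without Grhl2_cKO replicate 5), Bbs12 (-0.32 to 0.09; above 0 without Grhl2_cKO replicate 10 at 0.09 or Control replicate 7 at 0.05), Arl3 (-0.08 to 0.01; above 0 without Control replicate 1), Bbip1 (-0.03 to 0.14; below 0 without Grhl2_cKO replicate 10 at -0.01 or Control replicate 7), Mkks (-0.02 to 0.07) and Rfx1 (-0.12 to 0.03; both without Control replicate 7), and Rfx7 (-0.01 to 0.06; below 0 without Grhl2_cKO replicate 5 or, at -0.00, Control replicate 1). Of the 28 cilium genes not followed separately, 11 also took the opposite sign under some alternative, with no call: Ift46 (-0.07 to 0.06), Ift122 (-0.02 to 0.04), Ift140 (-0.02 to 0.03), Bbs1 (-0.02 to 0.13), Bbs2 (-0.00 to 0.04), Bbs4 (-0.14 to 0.17), Bbs7 (-0.13 to 0.05), Kifap3 (-0.07 to 0.05), Tctn1 (-0.09 to 0.06), B9d1 (-0.03 to 0.08) and B9d2 (-0.05 to 0.05). The cause was not tested. The other 635 of 645 values over those 43 genes kept their direction and their side of the threshold. Adjusted p-values cannot separate changes of a few percent at this number of samples. No paired analysis was possible because the genotypes share only replicate number 1.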
